A study of Mus musculus with 10 samples.

Results

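The genes described here encode the enzymes that build cholesterol and fatty acids, the proteins that control those enzymes, and the proteins that remove cholesterol from cells. The list held 33 genes, listed by name for their function: 7 enzymes of the mevalonate part of the route, 11 enzymes from squalene to cholesterol, 6 regulators, 6 enzymes of fatty acid synthesis and desaturation, and 3 genes of cholesterol removal. They were looked up among 23283 gene names in the 2.5-month table and 54427 in the 3-month table, and all 33 were found in both. This list, the further pathway genes and the cell type markers below were chosen with earlier results of these data known. Counts set against all genes are therefore descriptions. RNA from mouse somatosensory cortex was sequenced in 10 libraries from 2 conditional deletions of Nsd1, which encodes a methyltransferase of histone H3 lysine 36. The first model, at 2.5 months, compared 3 Nsd1Nex-cKO libraries with 3 controls. Its controls were labelled Nsd1fl/+ for replicates 1 and 2 and Nsd1fl/fl for replicate 3. The second model, at 3 months, compared 2 Nsd1Camk2a-cKO libraries with 2 Nsd1fl/+ controls.

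Both drivers act in only some of the cells in the tissue. Nex (Neurod6) drives recombination in developing excitatory neurons of the cortex, and Camk2a drives it in excitatory neurons of the forebrain after birth, so glia, vessels and most inhibitory neurons kept the gene in either model. Whether control mice had a Cre transgene, and whether replicates came from separate mice, is not stated in the sources used here, so the p-values below measure the spread between these samples. The models differed in driver, age and deposited table together, and in the RNAs that mark sex: Xist was under 0.01 FPKM and Ddx3y at 11.0 to 12.4 FPKM in all 4 of the 3-month libraries, while 5 of the 6 libraries at 2.5 months had Xist at 33.6 to 46.5 FPKM and Ddx3y at 0. These differences cannot be told apart in any comparison of the models.

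Cholesterol synthesis starts from acetyl-CoA, passes through mevalonate and the isoprenoid diphosphates to squalene, and ends in a series of sterol conversions. The transcription factors SREBP1 and SREBP2 raise transcription of the enzymes when sterols are low: SCAP escorts them out of the endoplasmic reticulum, and INSIG proteins hold them there when sterols are plentiful. The brain makes its own cholesterol, myelin-forming oligodendrocytes use much of it, and neurons dispose of the excess through the 24-hydroxylase CYP46A1, whose oxysterol product activates the LXR receptors that drive Abca1 and Abcg1.

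SREBPs bind promoters beside the general factor NF-Y, so the members' promoters were searched for the letters these factors are known to bind. RefSeq promoter windows on GRCm38.p6, each running from 250 bases before to 50 bases after a start site, were found for 26 of the 33 members. Abcg1, Fdft1, Fdps, Scd1, Scd2, Sqle and Stard4 had no entry. The windows of 3 members, from an early step of the mevalonate route, a late sterol step and fatty acid synthesis, are shown for the 250 bases before the start. They are printed 5′ to 3′ on the strand of the gene, with capitals marking matches to the NF-Y box CCAAT, on either strand, and to the sterol regulatory element core TCACNCCAC. The windows are Hmgcs1 at chr13:119690101-119690350 on the plus strand, Ebp at chrX:8193513-8193762 on the minus strand and Fasn at chr11:120824548-120824797 on the minus strand.
Hmgcs1: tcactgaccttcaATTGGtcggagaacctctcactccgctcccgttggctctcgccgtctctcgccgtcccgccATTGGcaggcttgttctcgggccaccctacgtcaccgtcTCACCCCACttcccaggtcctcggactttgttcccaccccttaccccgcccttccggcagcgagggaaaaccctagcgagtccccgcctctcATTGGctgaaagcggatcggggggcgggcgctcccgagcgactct
Ebp: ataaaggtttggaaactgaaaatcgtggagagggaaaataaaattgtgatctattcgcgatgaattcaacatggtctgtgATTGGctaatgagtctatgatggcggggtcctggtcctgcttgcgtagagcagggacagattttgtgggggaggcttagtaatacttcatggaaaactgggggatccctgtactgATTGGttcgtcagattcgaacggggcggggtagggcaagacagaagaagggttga
Fasn: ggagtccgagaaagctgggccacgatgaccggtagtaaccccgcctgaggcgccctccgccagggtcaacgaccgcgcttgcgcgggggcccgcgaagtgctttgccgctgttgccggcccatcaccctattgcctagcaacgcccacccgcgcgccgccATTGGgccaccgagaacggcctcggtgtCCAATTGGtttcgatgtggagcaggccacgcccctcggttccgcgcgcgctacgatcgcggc

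The Hmgcs1 window held 1 match to the sterol element, with its first base at position -137 from the start, and 3 NF-Y boxes in the stretch shown. Ebp held 2 NF-Y boxes and Fasn 3, of which a pair overlap in the run CCAATTGG. Both strands were searched. Counting a gene once when any of its windows held the letters, CCAAT was in 22 of the 26 members, or 84.6%, against 41.1% of 27025 genes in the promoter table. The GC box GGGCGG was in 23 members, or 88.5%, against 38.2% of genes, and the E-box CACGTG was in 6, or 23.1%, against 8.09%. The sterol element core was in Hmgcs1 alone, 3.85% of members against 1.44% of genes. Counted per window, CCAAT was in 65.7% of the members' 35 windows against 37.4% of all 32851. The GC box was in 77.1% against 35.7%, the E-box in 20% against 7.15% and the sterol element core in 2.86% against 1.24%. The comparison genes were not limited to those expressed in cortex. These counts are a description of the letters. A window without a match says nothing about whether a factor binds the gene.

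In the 2.5-month table the libraries gave FPKM values (fragments per kilobase of transcript, scaled to the library's mapped fragments) without read counts, so their depth is unknown; in the 3-month table whole reads could be recovered and came to between 16900746 and 20073922 per library. The Nsd1 row of the 2.5-month table is joined with the neighbouring Prelid1, so its value is not that of Nsd1 alone. The joined row stood at 125 to 141 FPKM in controls and 91.0 to 118 in Nex cKO (log2 change -0.34, adjusted p = 0.0863, limma with Benjamini-Hochberg). In the 3-month table Nsd1 was at 5.61 and 8.87 FPKM in controls and 4.31 and 4.99 in Camk2a cKO (log2 change -0.52, adjusted p = 0.685 by limma). Defining markers of excitatory neurons, astrocytes and oligodendrocytes were present in every library. Nex cKO replicate 3 stood apart: its Xist and Ddx3y were like those of the 3-month libraries, at 0.0035 and 16.2 FPKM, and rows without a gene name held 41.6% of its summed FPKM against 2.33 to 19.4%. Several counts over all members and over the 18 enzymes, and the changes of several genes that moved when that library was left out, are given with and without it.

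In the Nex model 1 of the 18 cholesterol enzymes, Sqle, was called lower in cKO cortex (5.56%, against 4.06% of all genes tested). The Sqle call was lost without any single control. The other enzymes lay mostly below their controls without passing the test. Of the 18 enzymes, 17 had a negative log2 change, 14 had every cKO library below every control library (18.9% of all genes tested did), and the median change was -0.28. Across all 33 members, 31 had a negative change as deposited and 27 after median-ratio rescaling or quantile normalization of the libraries. Their median was -0.22, or -0.18 and -0.15 under those scalings, and the range ran from -0.50 to 0.37. Among all 12528 genes tested, 59.5% had a negative change as deposited and 52.3% and 53.6% under those scalings, and the median as deposited was -0.04. All statements of groups without overlap use FPKM as deposited, and their counts were not repeated after rescaling. Median-ratio factors were 1.01 to 1.03 in the Nex controls and 0.979 to 0.995 in the Nex cKO libraries, so a small gap between groups can depend on the scaling. Changes are differences of log2(FPKM + 1), which understate the change of low genes. In bulk tissue, fewer cells of a type and less RNA per cell cannot be told apart.

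**Figure D1:**
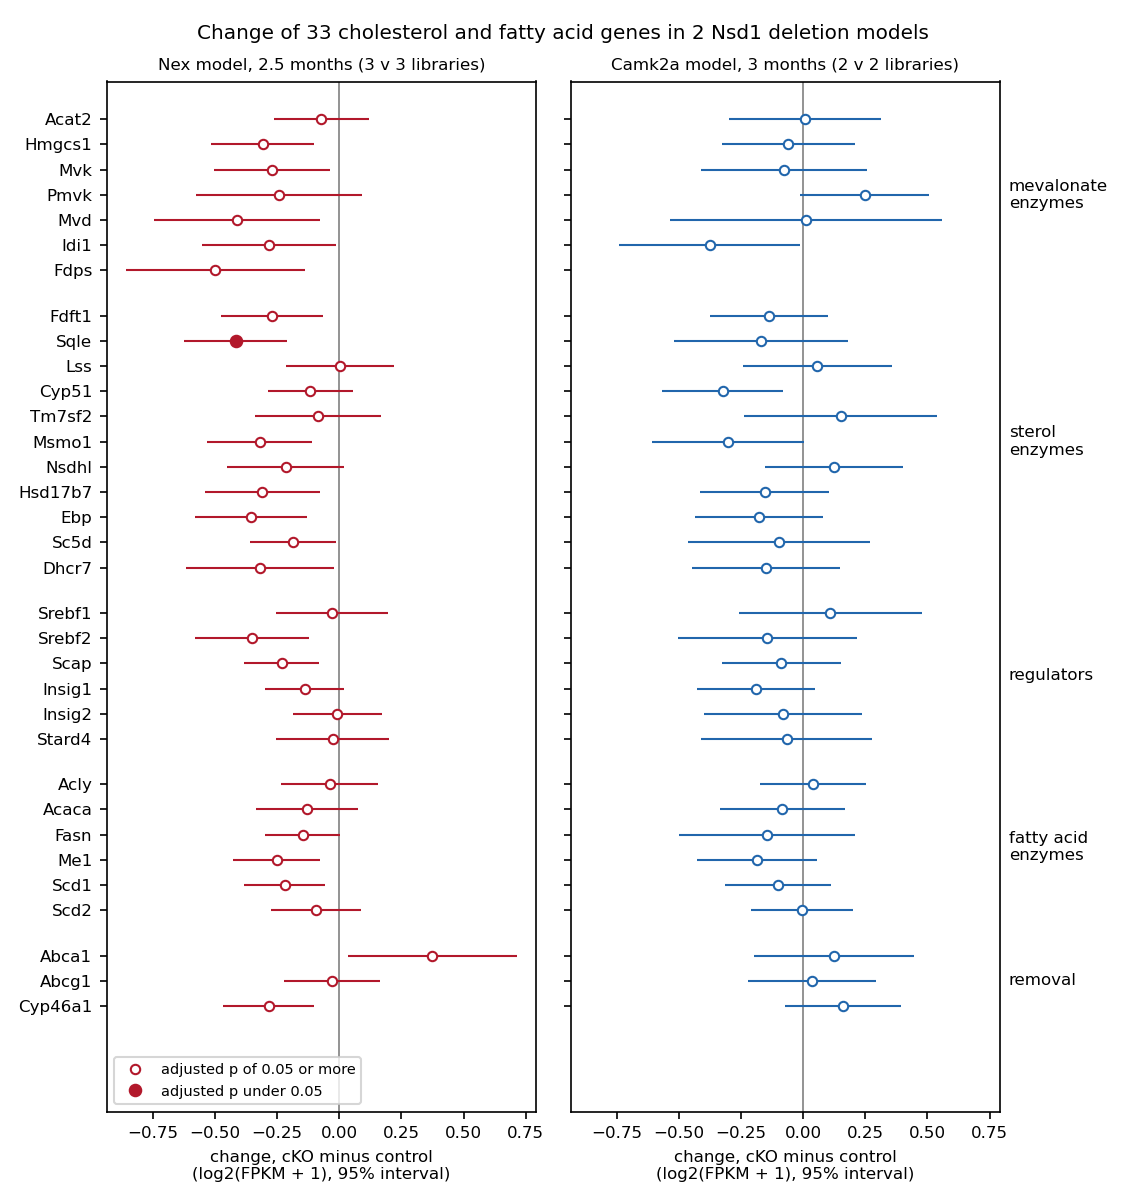
Change of each of the 33 genes, cKO minus control, on the log2(FPKM + 1) scale (x axis) by gene (y axis), with 95% limma intervals, in the Nex model (left, red) and the Camk2a model (right, blue). Filled points have an adjusted p under 0.05, which Sqle alone reached; 31 of 33 points lie below 0 on the left (27 after either rescaling of the libraries) and 21 of 32 on the right, where Fdps was not tested.

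Of the 33 members tested, 1 was lower at an adjusted p under 0.05, limma's test with Benjamini-Hochberg adjustment over all genes, and 0 were higher. The background was 4.06% of all genes called lower and 4.47% called higher, or 509 and 560 genes, and with the libraries rescaled by median ratios it was 356 lower and 594 higher. The members' share of calls was near that background. At an unadjusted p under 0.05, 17 members were lower, against 14.6% of all genes, and 1 was higher, Abca1, against 8.88%. After median-ratio rescaling 14 were lower by that measure, against 11.5% of all genes, and after quantile normalization 12, against 11.9%. Every cKO library lay below every control library for 21 members, against that 18.9% of all genes, and above for 1, again Abca1, against 11.5%. Without control replicate 3 the count lower at an unadjusted p under 0.05 was 11, against 9.7% of all genes, and 6 of those were enzymes. Without Nex cKO replicate 3, 1 member was called lower (background 4.45%), 16 were lower at an unadjusted p under 0.05 (background 14.6%), 27 of 33 had a negative change (background 59.3%) and the median was -0.17. Without Nex cKO replicate 2, limma called 4 members lower (background 5.4%), namely Sqle, Mvd (log2 change -0.56, adjusted p = 0.033), Hmgcs1 (-0.37, 0.042) and Srebf2 (-0.45, 0.014). Without control replicate 1, 2 or 3 it called 0 (background 1.26%, 1.61% and 1.27%). In those 3 fits 13, 15 and 11 members were lower at an unadjusted p under 0.05 (background 10.4%, 11.9% and 9.7%). For the 18 enzymes without cKO replicate 3, 17 had a negative change, and the positive one was the joined Tm7sf2 row, not Lss. Of the 18, 8 rather than 12 were lower at an unadjusted p under 0.05 (14.6% of all genes in both fits). Their median was -0.19.

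**Figure D2:**
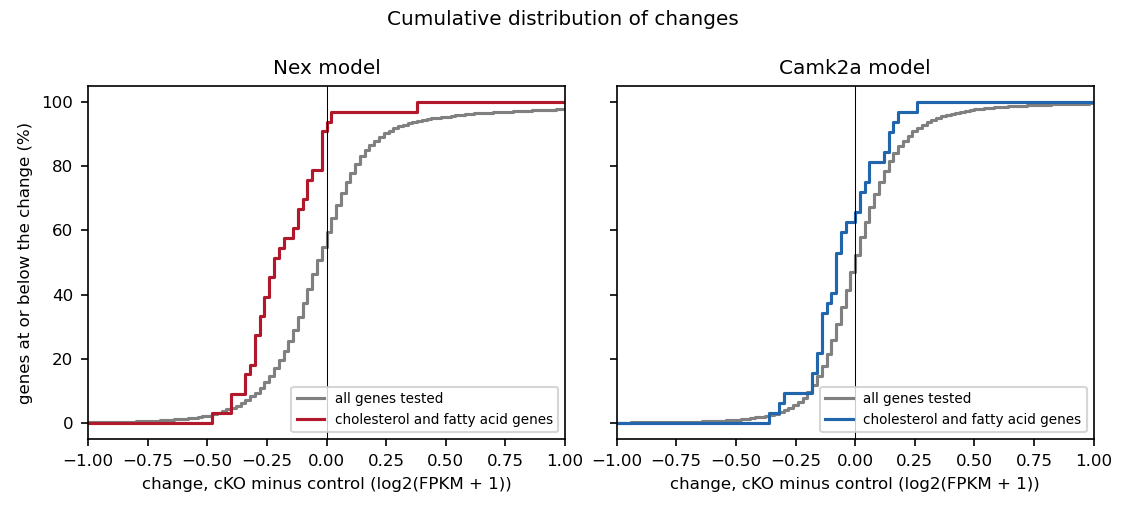
Percent of genes (y axis) whose change, cKO minus control on the log2(FPKM + 1) scale, lay at or below the value on the x axis, for the members (colour) and all genes tested (grey) in the Nex model (left) and the Camk2a model (right). The members' curve lies to the left of the grey one over most of its course, with medians of -0.22 against -0.04 on the left and -0.08 against -0.01 on the right.

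The mevalonate enzymes turn acetyl-CoA into farnesyl diphosphate, the last intermediate that sterols share with other isoprenoids. The 7 listed here are not every enzyme of that part. All 7 had a negative change in the Nex model, with a median of -0.28, and 0 of 7 were called at the adjusted threshold by limma, with 5 at an unadjusted p under 0.05 (14.6% of all genes). Hmgcs1, the cytosolic HMG-CoA synthase whose promoter is shown above, had 71.5, 62.7 and 68.9 FPKM in the control replicates and 55.7, 59.4 and 48.7 FPKM in the cKO replicates. The groups did not overlap, and replicate 3 of the cKO was lowest. Its log2 change was -0.31 (95% interval -0.52 to -0.10, adjusted p = 0.076 by limma). Fdps, the farnesyl diphosphate synthase, had the most negative change of the 33 members over all 6 libraries, with 46.4, 40.4 and 45.9 FPKM in controls and 37.0, 34.6 and 23.1 FPKM in cKO. Those groups did not overlap either, and the lowest value again came from cKO replicate 3 (log2 change -0.50, interval -0.86 to -0.14, adjusted p = 0.0947 by limma). Without that library the Fdps change was -0.29, and Msmo1, at -0.34, was the member with the most negative change.

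Among the other mevalonate enzymes, Mvd, the decarboxylase that makes isopentenyl diphosphate, had a log2 change of -0.41, or -0.24 without cKO replicate 3, and its row in the 2.5-month table is joined with the gene model Gm20735. Idi1, the isomerase of isopentenyl diphosphate, had a change of -0.28, or -0.17 without cKO replicate 2, and Mvk, mevalonate kinase, one of -0.27. Pmvk, phosphomevalonate kinase, had a change of -0.24, with groups that overlapped, and of -0.07 without cKO replicate 3. Acat2, which joins acetyl-CoA units in the cytosol, had the smallest change of the 7 at -0.07, and its interval of -0.26 to 0.12 included 0.

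In the squalene-to-cholesterol arm, Sqle was the enzyme called lower. Sqle encodes squalene epoxidase, a rate-limiting step of the sterol part of the route, and lies at chr15:59315077-59331192 on the plus strand of GRCm38. Its level was 20.7, 20.1 and 19.5 FPKM in controls and 16.5, 15.0 and 13.1 FPKM in Nex cKO. The lowest control stood above the highest cKO library, and the controls were closely grouped. The means were 20.1 ± 0.563 and 14.9 ± 1.73 FPKM (SD, n = 3 each), which is 26.1% lower, with a log2 change of -0.42 (SE 0.09, adjusted p = 0.0243 by limma). The call held without any single cKO library (adjusted p between 0.0222 and 0.0403 by limma) and was lost without any single control (0.0751 to 0.10) and under quantile normalization (0.0528).

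Of the 11 sterol enzymes, 10 had a negative change (all 11 under quantile normalization, where Lss was at -0.01), 9 had every cKO library below every control (18.9% of all genes), and 7 were lower at an unadjusted p under 0.05 (14.6% of all genes). Ebp, the sterol isomerase whose promoter is shown above, had 10.6, 9.11 and 11.0 FPKM in controls and 7.81, 8.40 and 7.09 FPKM in cKO. The groups did not overlap, and the log2 change was -0.36 (adjusted p = 0.0616 by limma). Ebp and Nsdhl, a sterol dehydrogenase with a change of -0.22 (-0.12 without cKO replicate 3), lie on the X chromosome, and the library in which both were lowest, cKO replicate 3, is also the one with Xist near 0.

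Msmo1, a sterol methyl oxidase, Dhcr7, the last reductase on one branch of the route, and Hsd17b7, a ketoreductase, had changes of -0.32, -0.32 and -0.31. Without cKO replicate 3 the Dhcr7 change was -0.16. Fdft1, squalene synthase, which commits farnesyl diphosphate to sterols, had a change of -0.27, and Sc5d, a desaturase, one of -0.19. Cyp51, lanosterol demethylase, and Tm7sf2, a sterol reductase, are joined with Akap9 and Vps51 in the 2.5-month table and had changes of -0.12 and -0.09. Lss, lanosterol synthase, was the enzyme without a negative change, with 5.29, 5.14 and 4.52 FPKM in controls and 4.94, 4.71 and 5.31 FPKM in cKO. Its groups overlapped, with an interval of -0.21 to 0.22 around the change.

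The enzymes' median level lay below the control mean in each Nex cKO library. On the log2(FPKM + 1) scale relative to that mean, it was between -0.06 and 0.03 in the 3 controls, and -0.12 in replicate 1, -0.18 in replicate 2 and -0.41 in replicate 3. Over all genes tested the same medians were -0.04, -0.03 and -0.05. Replicate 3 was the lowest of the 6 libraries for 12 of the 18 enzymes and for 18 of the 33 members, and for 32.7% of all genes tested. The summed FPKM of the 18 enzymes was 352 to 381 in controls and 328, 316 and 268 in the cKO replicates.

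**Figure D3:**
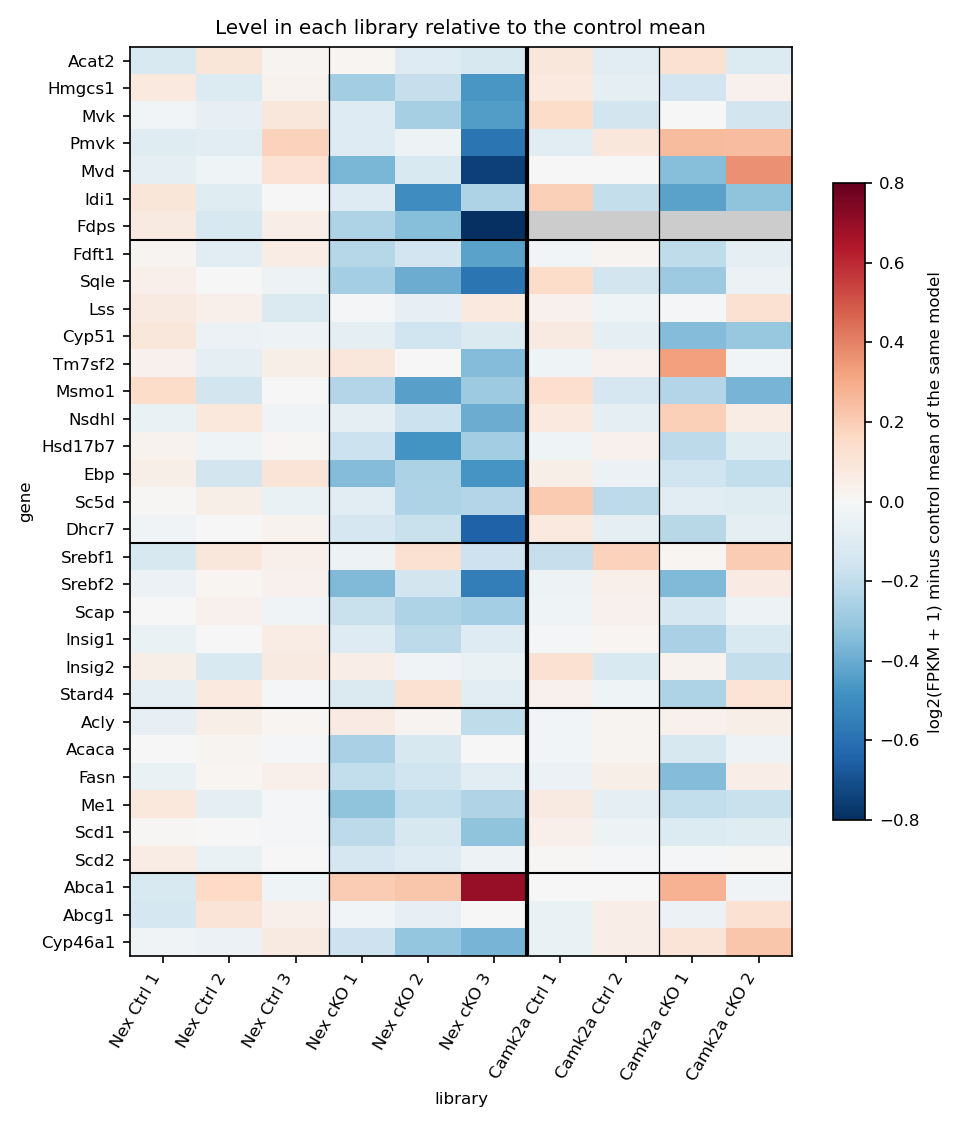
Level of each member (y axis) in each of the 10 libraries (x axis) as log2(FPKM + 1) minus the control mean of the same model, blue below and red above, with grey for the untested Fdps in the 3-month table; lines separate the gene classes and groups. The enzyme rows are mostly blue in the Nex cKO columns and deepest in replicate 3, where the enzyme median is -0.41, while Abca1 is red there.

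Among the regulators, log2 changes in the Nex model ran from -0.35 to -0.01, and those of Srebf1, Insig2 and Stard4 turned slightly positive under a rescaling of the libraries. Srebf2 encodes SREBP2, the main activator of cholesterol enzymes, and its level was 63.8, 66.7 and 67.4 FPKM in controls and 51.4, 59.4 and 44.6 FPKM in Nex cKO. The groups did not overlap, the cKO values were spread more widely, and the log2 change was -0.35 (interval -0.58 to -0.12, adjusted p = 0.0705 by limma). Without cKO replicate 3 the Srebf2 change was -0.25. Srebf1 encodes SREBP1, which favours fatty acid genes, and its level was 12, 14.2 and 13.7 FPKM in controls and 12.8, 14.5 and 11.7 FPKM in cKO. Those groups overlapped, with a change of -0.03 and an interval of -0.25 to 0.20 (adjusted p = 0.892 by limma).

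Scap, the SREBP escort, had 27.2, 28.0 and 26.8 FPKM in controls and 24.1, 22.9 and 22.4 FPKM in cKO, with no overlap. Its log2 change was -0.23 (adjusted p = 0.0665 by limma). Insig1, which retains SREBPs and is itself an SREBP target, had 26.4, 27.4 and 28.7 FPKM in controls and 25.5, 23.6 and 25.6 FPKM in cKO. As deposited, all cKO values were below the lowest control by a small margin that depends on the scaling, and the change was -0.14 (adjusted p = 0.271 by limma). Insig2, its paralogue, and Stard4, a cytosolic sterol carrier, had changes of -0.01 and -0.03, both with intervals that included 0. Of the 6 regulators, 0 were called by limma at the adjusted threshold and 2, Srebf2 and Scap, were lower at an unadjusted p under 0.05 (14.6% of all genes).

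**Figure D4:**
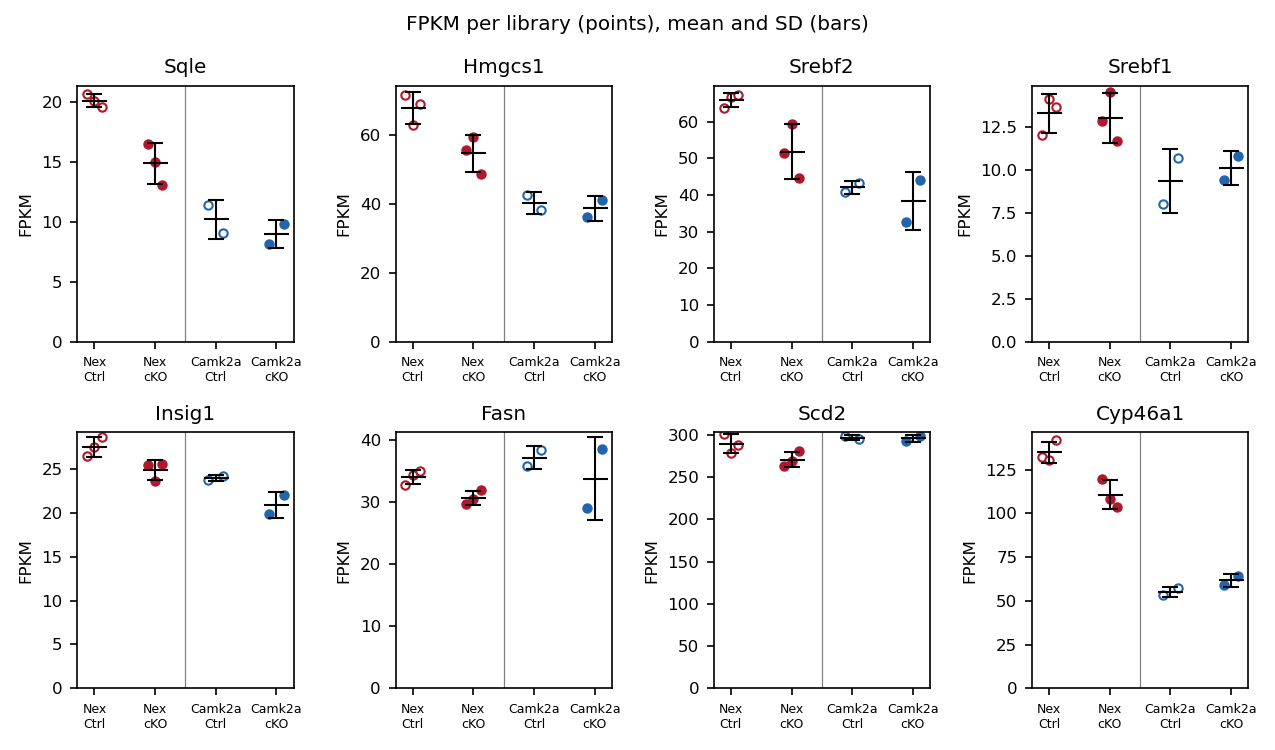
FPKM (y axis, from 0) of 8 genes in each library of the 4 groups (x axis), with open points for controls, filled points for cKO, and bars for the mean and SD. The Nex control and cKO points of Sqle, Hmgcs1, Srebf2 and Cyp46a1 do not overlap, while those of Srebf1 and Scd2 do; levels are compared within a model only, because the models come from separate tables.

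The 6 fatty acid enzymes had a median log2 change of -0.14 in the Nex model, and all 6 values were negative as deposited, while Acly and Scd2 turned positive under quantile normalization. Fasn, fatty acid synthase, had 32.7, 34.3 and 35.0 FPKM in controls and 29.6, 30.4 and 31.8 FPKM in Nex cKO. As deposited, the groups were close but did not overlap, a gap that depends on the scaling, and the change was -0.15 (interval -0.30 to 0.00, adjusted p = 0.224 by limma). Scd2, the desaturase most abundant in brain and the member with the most FPKM, had 301, 278 and 288 FPKM in controls and 263, 269 and 281 FPKM in cKO in a row joined with Mir5114. One cKO library reached into the control range, and the change was -0.09 (adjusted p = 0.520 by limma).

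Me1, a malic enzyme that supplies NADPH, had a change of -0.25, and Scd1, a second desaturase, had one of -0.22. Each had an unadjusted p under 0.05 and no overlap between groups. Acaca, acetyl-CoA carboxylase, and Acly, which makes cytosolic acetyl-CoA from citrate, had changes of -0.13 (-0.07 without cKO replicate 1) and -0.04, with overlapping groups. By limma, 0 of the 6 fatty acid enzymes were called at the adjusted threshold and 2 were lower at an unadjusted p under 0.05 (14.6% of all genes).

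Of the genes of cholesterol removal, 2 had changes of opposite sign in the Nex model and neither passed the adjusted test. Cyp46a1, the neuronal 24-hydroxylase, had 132, 131 and 142 FPKM in controls and 120, 108 and 104 FPKM in cKO, without overlap. Its change was -0.28 (interval -0.47 to -0.10, adjusted p = 0.067 by limma). Abca1, which loads cholesterol onto lipoproteins, had 3.23, 4.14 and 3.5 FPKM in controls and 4.31, 4.38 and 6.47 FPKM in cKO. It was the one member with every cKO library above every control, with cKO replicate 3 highest, and its change was 0.37 (interval 0.03 to 0.71, adjusted p = 0.172 by limma), or 0.21 without that library. Abcg1, a partner transporter, had a change of -0.03 with overlapping groups.

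Markers of other cell types differed between the same groups. The summed FPKM of 14 oligodendrocyte markers was 1821 to 1960 in Nex controls and 1498 to 1626 in Nex cKO. Mbp alone supplied 980 to 1043 and 733 to 878 FPKM of these sums. Of the 14, 2 were lower by limma at the adjusted threshold (4.06% of all genes) and 11 had a negative change as deposited (59.5% of all genes). By limma 7 of the 14 were lower at an unadjusted p under 0.05 (14.6% of all genes). Every cKO library lay below every control for 7 of these markers (18.9% of all genes). Their median change was -0.18. The sum for 11 astrocyte markers was 899 to 978 in controls and 994 to 1038 in cKO, with a median change of 0.05. Of the 11, 1, Gfap, was called higher (4.47% of all genes), and it alone had groups that did not overlap. The sum for 10 microglial markers was 207 to 255 and 259 to 291, with 2 higher (4.47% of all genes) and a median change of 0.22. The sum for 8 excitatory neuron markers overlapped, at 1623 to 1705 in controls and 1439 to 1644 in cKO. Of the 8, 2 were called lower, Neurod6 and Tbr1, and 1 higher, Neurod2 (4.06% and 4.47% of all genes). Neurod6 is the gene of this model's driver, and whether the driver itself changes its level was not tested. No gene of these lists was at 0 in every library, and their part in the members' values was not tested.

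In the Camk2a model 0 of the 32 members tested were called in either direction by limma, and 0 of all 12919 genes were (background 0% lower and 0% higher). At an unadjusted p under 0.05, 2 members were lower, against 3.35% of all genes, and 0 were higher, against 3.61%. A voom fit on the recovered reads also called 0 members. Of the 32, 21 had a negative change, against 52.5% of all genes, and the median was -0.08, against -0.01. With 1 library left out the number negative ran from 18 (without control replicate 1) to 23 (without cKO replicate 2) and the median from -0.03 to -0.13. Every cKO library lay below both controls for 11 members, against 21.1% of all genes, and above them for 3, namely Pmvk, Acly and Cyp46a1, against 16.2%.

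The 2 members with an unadjusted p under 0.05 in the Camk2a model were cholesterol enzymes, named here after their values were seen. Cyp51 had 17.5 and 15.8 FPKM in controls and 12.9 and 13.3 FPKM in cKO, a log2 change of -0.32 (adjusted p = 0.588 by limma). Idi1 had 8.11 and 6.0 FPKM in controls and 4.94 and 5.38 FPKM in cKO, a change of -0.38 (adjusted p = 0.695 by limma), which ran from -0.19 without control replicate 1 to -0.57 without control replicate 2. Neither pair of groups overlapped. Fdps was not tested in this table, where it stood at 0.124 and 0.144 FPKM in controls and 0.0935 and 0.0848 FPKM in cKO, from 9, 12, 7 and 6 recovered reads. Every other member had at least 175 reads in each library, and the 2.5-month table held Fdps at 23.1 to 46.4 FPKM, so the 3-month value is not read here as a level.

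Sqle had 11.4 and 9.07 FPKM in Camk2a controls and 8.13 and 9.79 FPKM in cKO, which overlapped, with a change of -0.17, an interval of -0.52 to 0.18, and values of -0.32 to -0.02 with 1 library left out. Hmgcs1 had 42.5 and 38.1 FPKM in controls and 36.1 and 41.2 FPKM in cKO, a change of -0.06. Fasn had 35.8 and 38.4 FPKM in controls and 29.0 and 38.5 FPKM in cKO, a change of -0.15. In each of these genes 1 cKO library reached the range of the controls or passed its top.

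Among the regulators, Srebf2 had 40.8 and 43.3 FPKM in Camk2a controls and 32.8 and 44.0 FPKM in cKO, a change of -0.14. Srebf1 had 8.04 and 10.7 FPKM in controls and 9.40 and 10.8 FPKM in cKO, a change of 0.11. Insig1 had 23.7 and 24.2 FPKM in controls and 19.8 and 22.0 FPKM in cKO, a change of -0.19 (adjusted p = 0.777 by limma). Of these genes Insig1 alone had no overlap. Scd2, the most abundant member here too, had 299 and 295 FPKM in controls and 293 and 299 FPKM in cKO, with an interval of -0.21 to 0.20 around its change.

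Cyp46a1 had 53.2 and 57.2 FPKM in Camk2a controls and 59.2 and 64.5 FPKM in cKO. Both cKO libraries were above both controls, the reverse of the order in the Nex model, and the change was 0.16 (interval -0.07 to 0.39, adjusted p = 0.817 by limma). Pmvk had 7.70 and 8.83 FPKM in controls and 10.002 and 9.965 FPKM in cKO, a change of 0.25 (adjusted p = 0.719 by limma). The summed FPKM of the 14 oligodendrocyte markers was 631 to 669 in these controls and 647 to 657 in cKO.

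The changes of the 2 models were compared directly for the 28 members whose row was named alone in both tables and tested in both. By limma 0 of 28 differed at an adjusted p under 0.05, against 0.554% of 10116 genes, and 2 had an unadjusted p under 0.05, against 13.4%. These were Cyp46a1, with a Nex change lower than its Camk2a change by a log2 difference of -0.44 (SE 0.12, adjusted p = 0.160), and Pmvk, with a difference of -0.49 (adjusted p = 0.358), or -0.32 without Nex cKO replicate 3. For Sqle the difference was -0.25, with an interval of -0.62 to 0.12 (adjusted p = 0.548 by limma), so its fall in the Nex model was not shown to be particular to that model. Of the 28 members 23 had a more negative change in the Nex model, against 56.0% of all genes. Their median difference was -0.11, against -0.03 over all genes.

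A further 87 genes of the same pathways, which take part in isoprenoid branching, sterol sensing, uptake and storage, oxysterol metabolism, fatty acid elongation and glycerolipid synthesis, were listed by name. In the Nex model 79 were tested, 6 were lower and 2 higher by limma at an adjusted p under 0.05 (7.59% and 2.53%, against 4.06% and 4.47% of all genes), and the median change was -0.07. In the Camk2a model 78 were tested and 0 were called, with 1 lower at an unadjusted p under 0.05 (3.35% of all genes). None of the isoprenoid partners or of the genes that process and degrade the pathway's sensors was called in the Nex model. Of these lists 0 of 9 and 0 of 10 had an unadjusted p under 0.05, against 14.6% of all genes lower and 8.88% higher.

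A gene of sterol uptake and a lipid transporter supplied 2 of the calls. Scarb1, a lipoprotein receptor, fell from a mean of 10.05 FPKM in Nex controls to 6.10 in cKO, a log2 change of -0.64 (adjusted p = 0.0139 by limma). Abca7, a lipid transporter, fell from 5.52 to 3.81 FPKM, a change of -0.44 (adjusted p = 0.0164 by limma). Endothelial cells express Scarb1, and the summed FPKM of 9 endothelial and mural markers was 123 to 150 in controls and 104 to 114 in cKO. Of the 9, 2 were called lower, Cldn5 and Egfl7 (4.06% of all genes), the only 2 whose groups did not overlap. The part of these markers in the Scarb1 value was not tested. The Scarb1 call was lost without control replicate 2, control replicate 3 or cKO replicate 1 (adjusted p = 0.0586 to 0.0664), and the Abca7 call without any single control (0.0514 to 0.0815).

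Fatty acid and glycerolipid genes supplied the other 6. Acss2, which makes acetyl-CoA from acetate and is joined with Gss in this table, fell by 0.44 on the log2 scale, with means of 22.2 FPKM in controls and 16.1 FPKM in cKO (adjusted p = 0.0109 by limma). Fads2, a desaturase of polyunsaturated fatty acids, fell from 49.2 to 40.1 FPKM (-0.29, adjusted p = 0.0326). Agpat1 and Agpat4, acyltransferases that make phosphatidic acid, fell from 61.2 to 47.7 and from 26.4 to 20.47 FPKM, each with a change of -0.35. Acsl5, an acyl-CoA synthetase, rose from 22.3 to 29.7 FPKM (0.39, adjusted p = 0.016), and Thrsp, a lipogenic regulator and a known thyroid hormone target, rose from 19.1 to 30.6 FPKM (0.65, adjusted p = 0.00842). The Thrsp call held without any single library, and that of Acss2 was lost without control replicate 3 (adjusted p = 0.0528 by limma). The other 4 were lost without each of at least 3 of the 6 libraries taken singly, Fads2 without each but cKO replicate 3 (0.0556 to 0.143), Agpat4 without each control or cKO replicate 1 (0.0534 to 0.105), Acsl5 likewise (0.0526 to 0.0799) and Agpat1 without control replicate 1, control replicate 3 or cKO replicate 1 (0.104 to 0.142)..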

How the data were processed

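RNA of mouse somatosensory cortex was measured in 10 libraries of 4 groups. The authors deposited FPKM values per library in 2 tables, per the file headers, and the 3-month table also holds a gene length in bases, deposited beside the values. Per the submitters' processing notes the tools included STAR, cutadapt, DESeq2 and Cufflinks 2.2.1, and the builds mm10 and GRCm38, with no role or order given. Some rows of the 2.5-month table join neighbouring genes: Mvd, Cyp51, Tm7sf2 and Scd2 were read from such rows. Where a name had several rows, the row of highest mean was used. The gene coordinates come from the GENCODE annotation of GRCm38.

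A gene was tested where it reached 1 FPKM in a number of libraries equal to the size of the smaller group or more. The test was two-sided on log2(FPKM + 1) with limma 3.58.1 (lmFit, eBayes with trend) in R 4.3.3, each table apart, with Benjamini-Hochberg adjustment over all genes tested and a threshold of 0.05. The difference of changes was fitted over all 10 libraries. In the 3-month table FPKM times gene length gave whole multiples of 1 read (100% of low values within 0.1 of a read), so limma's voom was also run on those reads. For the 2.5-month table the depth is unknown and no counting error can be given.

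The members, the further pathway lists and the marker lists were chosen with earlier results of these data known. Values per library are given for each member past the threshold and for Srebf1, Srebf2, Insig1, Hmgcs1, Sqle, Fasn, Scd2 and Cyp46a1 whatever their change. Further pathway genes are named where their adjusted p was under 0.05. Values per library of other members (Fdps, Ebp, Lss, Scap, Abca1, Cyp51, Idi1 and Pmvk) are shown by a choice made after their values were seen. Alternatives tried were quantile normalization, median-ratio rescaling, a minimum of 5 FPKM or none, a pseudocount of 0.1, moderation without the trend or made robust, a term for replicate number, and omission of each library in turn. No protein sequences were used here.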

Additional observations from a re-analysis of the deposited data

How the results depend on the processing

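The number of members called in the Nex model was 1 as reported, 0 under quantile normalization, and 0 to 4 when 1 library was left out. In the Camk2a model and in the difference of the models it was 0 in every setting run. Same-numbered libraries shared little of their deviation from the group mean, with r of -0.104 to 0.0167 at 2.5 months and 0.0496 at 3 months. In the Nex model the libraries did not all correlate best with their own number. With 2 libraries a group, the 3-month values are a single number that differs in sign alone. Whether the samples were paired cannot be settled by these values. A fit with a replicate block again called 1 member, Sqle (adjusted p = 0.0354 by limma), while Abca7, Agpat4, Fads2 and Agpat1 were not called (0.0527, 0.0508, 0.105 and 0.0903). Calls of those genes were also lost under quantile normalization (Fads2 0.135, Agpat1 0.0582, Agpat4 0.0609), without the intensity trend (Fads2 0.0619, Agpat1 0.0578) and under median-ratio rescaling (Fads2 0.0565). Over all settings the Nex members' median ran from -0.24 to -0.15 and the number with a negative change from 27 to 31. The number of Nex members lower at an unadjusted p under 0.05 by limma ran from 11 to 18. Members lower at an unadjusted p under 0.05 in the Camk2a model numbered 0 to 5, with 5 when cKO replicate 2 was left out. The cause of these shifts was not tested.

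Small changes turned sign. In the Nex model, under median-ratio rescaling, Srebf1 was at 0.0049, Insig2 at 0.026, Stard4 at 0.0044 and Abcg1 at 0.0059. Under quantile normalization Lss was at -0.011, Srebf1 at 0.019, Insig2 at 0.054, Acly at 0.0437, Scd2 at 0.117 and Abcg1 at 0.0224. With 1 library left out, Lss ran from -0.0551 to 0.039, Tm7sf2 from -0.175 to 0.0441, Srebf1 from -0.106 to 0.0402, Insig2 from -0.0683 to 0.0274, Stard4 from -0.101 to 0.0183, Acly from -0.0903 to 0.0445 and Abcg1 from -0.0993 to 0.0224. In the Camk2a model Scd2 was at 0.054 under quantile normalization and 0.0519 in voom. With 1 library left out there, Scd2 ran from -0.0179 to 0.00965, Srebf1 from -0.0769 to 0.296, Srebf2 from -0.351 to 0.064, Hmgcs1 from -0.152 to 0.0329 and Fasn from -0.344 to 0.0537. The lone library of a group was then assumed to vary like the other group. Summing the rows of one name, a setting chosen after seeing the data, changed no member's call.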

Other observations

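The 2.5-month table held a second, lower row for 5 members, which entered no comparison. The second Srebf2 row had 15.1, 17.1 and 18.5 FPKM in Nex controls and 14.1, 16.8 and 6.09 FPKM in cKO, with cKO replicate 3 again the lowest. The others were rows of Ebp, Sc5d, Scd1 and Scd2.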
